A study of Mus musculus with 18 samples.

Results

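Toll-like receptors are the sensors with which innate immune cells recognise microbial lipids, proteins and nucleic acids, and Myd88 is the adaptor that most of them use to signal. Described here are 9 receptors, Tlr1, Tlr2, Tlr3, Tlr4, Tlr6, Tlr7, Tlr9, Tlr12 and Tlr13, together with Myd88: 10 genes, taken by gene symbol, of 12094 genes tested. All 10 had at least 1 detected probe, and 14 of their 16 probes passed the detection filter. Expression was measured on Illumina bead arrays in 6 groups of 3 arrays each, from C57/BL6 mice: dendritic cells, B cells, T helper cells of type 1 (Th1) and of type 2 (Th2), whole brain, and naive CD4 T cells. The immune cells came from mice of both sexes and the brains from males, so sex and tissue cannot be told apart in the comparisons with brain. The series describes the replicates as biological. The immune cell samples are labelled wild type (wt), and the brain samples carry no such mark. The labels give no age, no sorting gate, no culture or stimulation step for the Th1 and Th2 cells, and no treatment of any group.

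Receptors at the cell surface mainly bind microbial lipids and proteins, and receptors inside endosomes bind nucleic acids. Ligand binding brings the receptors' intracellular domains together with Myd88, whose assembly with kinases of the IRAK family leads to activation of NF-kappa-B and interferon regulatory factors. Tlr3 is the exception among the receptors here, since it signals through the adaptor Ticam1 (TRIF), and Tlr4 uses both routes. Dendritic cells and B cells are known to carry different sets of these receptors, and Myd88 also serves the receptors for interleukin 1 and interleukin 18 on T cells.

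The members lie at scattered places in the mouse genome (build GRCm38.p6, from the RefSeq gene table), with Tlr1 at chr5:64924680-64933600 and Tlr6 close by at chr5:64953092-64970942. Tlr13 (chrX:106143275-106160493) and Tlr7 (chrX:167303380-167330574) are on the X chromosome, Tlr9 (chr9:106222598-106226876) and Myd88 (chr9:119335934-119340018) on chromosome 9, and Tlr4 (chr4:66827551-66846581) and Tlr12 (chr4:128615446-128618619) on chromosome 4. Tlr2 is at chr3:83836272-83841824 and Tlr3 at chr8:45395665-45411075. RefSeq promoter windows of 300 bases, running from 250 bases before to 50 bases after an annotated start, were matched for 8 members with 10 windows. An annotated start need not be the outer end of the gene span given above. Both Tlr6 windows, the Tlr3 window and 1 of the Tlr1 windows lie wholly inside those spans. Distances below are from the annotated start of each window. Windows were searched on both strands for 5 motifs: PU.1 as GAGGAAGT, the interferon-stimulated response element as GAAANNGAA, AP-1 as TGANTCA, an E-box as CAGCTG and a kappa-B site as GGGANTTTC. Of all 32851 windows in the table, 3.2%, 8.56%, 7.81%, 16.3% and 1.11% held these motifs in that order, and 32.2% held at least 1. Among the member windows 5 of 10 held one. The PU.1 letters began 23 bases before the start in 1 Tlr1 window and 11 bases after the start in Tlr9, where AP-1 letters also began 58 bases before it. Kappa-B letters began 211 bases before the start in Tlr3, and the response element began 40 bases before the start in Myd88 and, in a pair of overlapping copies, 115 and 109 bases before it in 1 Tlr6 window. No motif of the 5 was in the Tlr2, Tlr12 and Tlr13 windows, the other Tlr1 window or the other Tlr6 window. A match describes letters only. Below are the windows of the neighbours Tlr1 and Tlr6, which differed in pattern across the groups, of Tlr13, which was detected in a single group, and of Myd88, which was detected everywhere, each read 5′ to 3′ along the gene with motif letters in capitals. They are chr5:64933509-64933808 (minus strand), chr5:64959117-64959416 (minus strand), chrX:106143025-106143324 (plus strand) and chr9:119339969-119340268 (minus strand).
Tlr1: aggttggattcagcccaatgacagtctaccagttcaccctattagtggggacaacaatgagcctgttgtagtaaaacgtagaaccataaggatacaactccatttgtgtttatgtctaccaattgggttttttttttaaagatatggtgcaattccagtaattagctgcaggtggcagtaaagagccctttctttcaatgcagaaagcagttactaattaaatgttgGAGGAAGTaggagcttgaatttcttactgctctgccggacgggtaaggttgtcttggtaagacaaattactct
Tlr6: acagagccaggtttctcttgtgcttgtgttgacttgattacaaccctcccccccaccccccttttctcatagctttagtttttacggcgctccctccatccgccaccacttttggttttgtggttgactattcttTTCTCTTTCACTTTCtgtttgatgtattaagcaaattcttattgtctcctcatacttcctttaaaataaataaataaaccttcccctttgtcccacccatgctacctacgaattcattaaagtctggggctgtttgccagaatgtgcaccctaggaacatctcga
Tlr13: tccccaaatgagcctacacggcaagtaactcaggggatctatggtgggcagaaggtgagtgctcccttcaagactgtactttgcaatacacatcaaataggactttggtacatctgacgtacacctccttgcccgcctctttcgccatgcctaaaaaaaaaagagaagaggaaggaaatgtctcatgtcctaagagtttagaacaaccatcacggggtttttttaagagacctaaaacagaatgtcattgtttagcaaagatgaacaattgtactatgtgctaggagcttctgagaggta
Myd88: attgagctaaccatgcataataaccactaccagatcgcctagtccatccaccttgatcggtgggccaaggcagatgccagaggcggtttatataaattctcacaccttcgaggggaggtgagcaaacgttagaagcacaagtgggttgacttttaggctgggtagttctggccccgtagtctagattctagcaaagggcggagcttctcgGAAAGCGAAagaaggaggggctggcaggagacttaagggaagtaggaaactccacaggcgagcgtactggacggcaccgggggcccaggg

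Of 45281 probes on the array, 20377 to 20497 were detected on the brain arrays and 12564 to 16259 on the immune cell arrays, at a detection p below 0.01. Replicate arrays of a group correlated at r of 0.970 to 0.996. The median signal of undetected probes was 43.7 to 45.2 in dendritic cells and 45.8 to 51.3 in B cells, against 32.4 to 36.9 in the other groups. This split follows the groups, so background level and cell type cannot be told apart in comparisons across it. Conventional dendritic cell markers were detected on all dendritic cell arrays for 9 of 9 genes tested (summed normalized intensity 4475 to 7855, against 2231 to 5801 in B cells, which detected Ccr7 and Cd83 on all arrays and Fscn1 on 1, and 660 to 711 in naive CD4 T cells), B cell markers on all B cell arrays for 6 of 6, and T cell markers on all Th1, Th2 and naive arrays for 7 of 7. All 6 plasmacytoid dendritic cell genes tested were detected on all dendritic cell and all B cell arrays. Their sum was 1830 to 2735 in dendritic cells, 8594 to 9505 in B cells and 1353 to 1471 in naive CD4 T cells. The dendritic cell arrays also carried the markers of other cells. All 7 granulocyte genes tested were detected on each of the 3, with a summed intensity of 39819 to 56116, against 179 to 425 in B cells, 212 to 236 in brain and 138 to 312 in naive CD4 T cells. Of 5 macrophage and monocyte genes, 4 were detected on all 3 dendritic cell arrays (sum 7364 to 9986, against 97.5 to 199 in naive CD4 T cells), as were all 7 T cell genes (2333 to 3183, against 37475 to 38597) and all 5 NK and CD8 T cell genes (3128 to 3779, against 2013 to 2836). Of these 5, Prf1 and Cd8b1 were detected in every group. Klre1, Klrb1c and Eomes had mean log2 intensities of 10.31, 7.16 and 6.60 in dendritic cells. In naive CD4 T cells they read 4.23, 4.33 and 4.40 and were undetected. Of 6 B cell genes, 4 were detected on all dendritic cell arrays and Pax5 on none (sum 1923 to 3865, against 17807 to 18941 in B cells). The 2 erythroid genes tested were detected on all dendritic cell arrays (sum 1901 to 9426, against 81.9 to 235 in naive CD4 T cells and 13220 to 18963 in brain). In naive CD4 T cells the B cell gene Cd79b was detected on 3 of 3 arrays and Fcer2a on 1, while Ms4a1, Pax5, Blk and Cr2 were undetected. All 6 microglial genes tested were detected on each brain array. On all arrays of the other groups 3 of them were detected in dendritic cells, 2 in B cells and in Th2 cells, and 1 in Th1 cells and in naive CD4 T cells. Every dendritic cell value below comes from these arrays, and the part that granulocytes, macrophages or other cells had in it was not tested. In bulk RNA a smaller share of cells of a type and less RNA per cell cannot be told apart.

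A gene was counted as higher or lower when limma's moderated test gave an adjusted p under 0.05 over all 12094 genes and the log2 fold change was at least 1 in size. Between dendritic cells and naive CD4 T cells 6 of the 10 genes were higher and 0 lower, where 13.2% of all genes were higher and 9.83% lower. Among the 6, Tlr3 and Tlr13 were detected on the 3 dendritic cell arrays alone and passed the detection filter only through them, as Tlr9 did through the 3 B cell arrays. Tlr12, outside the 6, was detected elsewhere only on naive replicate 1 and also needed the dendritic cell arrays to pass the filter. The counts for these genes are therefore a description. Between B cells and naive CD4 T cells 3 were higher and 0 lower, against 7.3% and 6.92% of all genes. Dendritic cells against B cells gave 6 higher and 1 lower, beside 10.2% and 4.53% of all genes. Th1 cells had 0 higher and 2 lower than naive CD4 T cells, beside 13% higher and 15.4% lower of all genes, and Th2 cells 0 higher and 1 lower, beside 12.6% and 14.4%. For both T helper types the member counts lie close to what these shares give for 10 genes. Between Th1 and Th2 cells limma called 0 of 10 (2 met the adjusted p without the fold, and 4 an unadjusted p under 0.05), beside 2.18% higher and 2.32% lower of all genes. Brain had 0 higher and 5 lower than naive CD4 T cells, where 26.2% of all genes were higher and 27.1% lower. Brain had 0 higher and 9 lower than dendritic cells, where 25.4% of all genes were higher and 26.2% lower. The median log2 fold change of the 10 genes was 1.41 in dendritic cells over naive CD4 T cells and -3.59 in brain over dendritic cells, and that of all genes was -0.05 and -0.07. The comparisons with naive CD4 T cells share those 3 arrays, and those with dendritic cells share theirs, so their counts are not independent of each other.

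**Figure D1:**
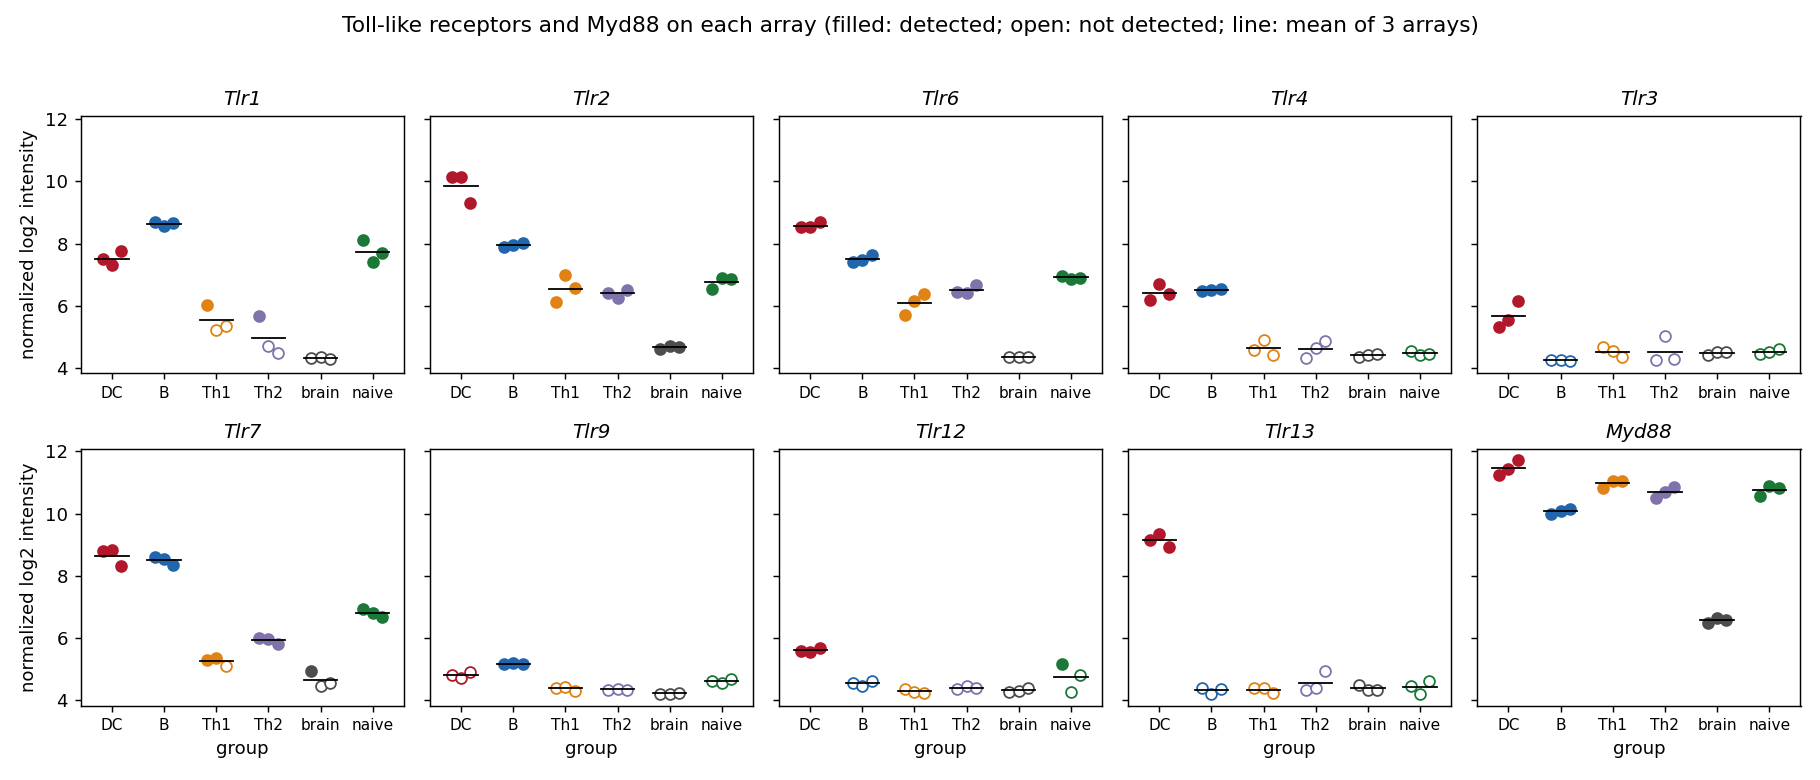
Normalized log2 intensity of each gene's representative probe on each of the 18 arrays by group, with filled points for arrays where the probe was detected, open points where it was not, and a line at the mean of 3 arrays. Tlr13 and Tlr3 have filled points on the dendritic cell arrays alone, Tlr4 on dendritic cell and B cell arrays, and Myd88 on all 18; heights of different probes are not comparable.

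Tlr2, Tlr1 and Tlr6 form the lipoprotein receptors of the cell surface: Tlr2 pairs with Tlr1 to bind triacylated lipopeptides and with Tlr6 to bind diacylated ones. Tlr2 was detected on all 18 arrays. Its log2 intensity was 10.12, 10.13 and 9.31 on the dendritic cell arrays, 7.90, 7.95 and 8.03 in B cells, 6.11, 6.99 and 6.56 in Th1 cells, 6.42, 6.26 and 6.51 in Th2 cells, 4.61, 4.70 and 4.68 in brain, and 6.53, 6.89 and 6.85 in naive CD4 T cells. Dendritic cells lay above every other array, B cells above all T cell arrays and brain below all others, while Th1 cells overlapped both naive CD4 T cells and Th2 cells, and all Th2 arrays lay below all naive arrays. Tlr2 was 8.56-fold higher in dendritic cells than in naive CD4 T cells (log2 fold change 3.10, SE 0.21, adjusted p = 2.48e-09) and 3.72-fold higher than in B cells (1.90, SE 0.21, adjusted p = 1.79e-06). B cells were 2.30-fold above naive CD4 T cells (1.20, SE 0.21, adjusted p = 0.000257), a log2 fold change that was 0.99 with an offset of 50 and then did not pass. Brain was 36.4-fold below dendritic cells (-5.19, adjusted p = 5.1e-13) and 4.26-fold below naive CD4 T cells (-2.09, adjusted p = 1.08e-07). The brain values lay just above the lowest signal detected on those arrays (4.58), so both folds rest on values near the detection limit. In Th1 and Th2 cells the log2 differences from naive CD4 T cells were -0.20 (SE 0.21, adjusted p = 0.478) and -0.36 (SE 0.21, adjusted p = 0.183).

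Tlr6, the partner of Tlr2 for diacylated lipopeptides, followed the same order at the top. Its brighter probe read 8.51, 8.54 and 8.68 in dendritic cells, 7.41, 7.46 and 7.64 in B cells, 5.72, 6.15 and 6.37 in Th1 cells, 6.44, 6.41 and 6.66 in Th2 cells, 4.35, 4.36 and 4.35 in brain, and 6.96, 6.86 and 6.91 in naive CD4 T cells. It was detected on all 15 immune cell arrays and on no brain array, and dendritic cells, B cells, naive CD4 T cells and T helper cells formed separate bands in that order. Dendritic cells were 3.18-fold above naive CD4 T cells (1.67, SE 0.14, adjusted p = 2.02e-08) and 2.11-fold above B cells (1.08, SE 0.14, adjusted p = 6.22e-06). The gain over B cells fell under the fold threshold in 5 of the alternatives tried, with log2 values of 0.68 to 0.98. Brain lay at least 16-fold below dendritic cells (adjusted p = 1.62e-14) and at least 5.04-fold below naive CD4 T cells (adjusted p = 1.64e-11), the bound being set by the lowest signal detected on each brain array. Th1 cells were 0.83 (SE 0.14, adjusted p = 5.49e-05) and Th2 cells 0.41 (SE 0.14, adjusted p = 0.018) log2 units below naive CD4 T cells, both short of the fold threshold. A dimmer Tlr6 probe gave smaller differences: 0.60 (adjusted p = 0.011) in dendritic cells over naive CD4 T cells and 0.27 (adjusted p = 0.281) over B cells, neither of which passed. For dimmer or second probes, here and below, p-values were adjusted over all detected probes with 1 gene symbol.

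Tlr1, the partner for triacylated lipopeptides and the genomic neighbour of Tlr6, had another order, led by B cells. It was the only receptor here that passed as lower in both T helper types. Tlr6 and Tlr7 also lay below naive CD4 T cells in both types, with Tlr7 passing in Th1 cells alone and Tlr6 in neither. The log2 intensity of Tlr1 was 7.49, 7.31 and 7.74 in dendritic cells, 8.70, 8.56 and 8.65 in B cells, 6.03, 5.23 and 5.35 in Th1 cells, 5.67, 4.71 and 4.49 in Th2 cells, 4.33, 4.37 and 4.28 in brain, and 8.11, 7.42 and 7.69 in naive CD4 T cells. All Th1 and Th2 arrays lay below all naive arrays, dendritic cells overlapped naive CD4 T cells, and no brain array detected the gene. In Th1 cells Tlr1 was lower than in naive CD4 T cells (-2.20 on the log2 scale, SE 0.26, adjusted p = 1.73e-06), as it was in Th2 cells (-2.78, SE 0.26, adjusted p = 1.2e-07). Replicate 1 was the highest array in both T helper groups and in each the only 1 of 3 on which Tlr1 was detected, so both values rest mainly on arrays that were not above the detection limit. Dendritic cells were 2.17-fold below B cells (-1.12, SE 0.26, adjusted p = 0.00258), a log2 value of -0.99 with an offset of 50. B cells were 0.90 log2 units above naive CD4 T cells (SE 0.26, adjusted p = 0.0127), under the fold threshold. Without naive replicate 1, the highest naive array, that value was 1.08 (adjusted p = 0.00848) and passed. Brain was at least 8.93-fold below naive CD4 T cells (adjusted p = 2.59e-09).

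Tlr4 is the receptor for lipopolysaccharide, which it binds together with Ly96 (MD-2) after transfer from Cd14. It was detected in dendritic cells and B cells only, on all 6 of those arrays. Its log2 intensity was 6.17, 6.70 and 6.36 in dendritic cells and 6.46, 6.52 and 6.53 in B cells, and lay between 4.33 and 4.89 on the Th1, Th2, brain and naive arrays, where it was undetected. Dendritic cells and B cells overlapped, and both stood apart from the other 12 arrays. Dendritic cells were at least 2.30-fold (log2 fold change 1.94, SE 0.15, adjusted p = 1.24e-08) and B cells at least 2.45-fold (2.03, SE 0.15, adjusted p = 1.13e-08) above naive CD4 T cells. The difference of dendritic cells from B cells was -0.09 (SE 0.15, adjusted p = 0.715). A second Tlr4 probe gave 1.84 and 2.11 for the same comparisons with naive CD4 T cells, and a further Tlr4 probe was detected on no array. On the authors' scaled signal, without background correction, the log2 value in dendritic cells over naive CD4 T cells was 1.00 and fell just short of the threshold.

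Among 5 co-receptors tested, 4 were higher in dendritic cells than in naive CD4 T cells and 0 lower, beside 13.2% and 9.83% of all genes. In B cells 3 were higher and 1 lower, beside 7.3% and 6.92%. Ly86 and Cd180, partners in a receptor complex related to Ly96 and Tlr4, were both higher in both groups. Ly86 was higher by log2 values of 5.71 (SE 0.23, adjusted p = 1.77e-12) in dendritic cells and 6.20 (SE 0.23, adjusted p = 1.39e-12) in B cells. Cd180, undetected in naive CD4 T cells, was at least 15.6-fold higher in dendritic cells (adjusted p = 4.22e-14) and at least 24.0-fold higher in B cells (adjusted p = 3.51e-14). Cd14 separated the dendritic cells from the B cells. It rose by 4.22 in dendritic cells over naive CD4 T cells, a bound of at least 11.8-fold (adjusted p = 4.19e-09), and by 4.26 over B cells, at least 12.6-fold (adjusted p = 5.8e-09), being undetected in both B cells and naive CD4 T cells. Cd14 is also a monocyte and granulocyte gene, and the markers of those cells on these arrays are given above. Lbp, which carries lipopolysaccharide in serum, was at least 1.85-fold lower in B cells than in naive CD4 T cells (-1.56, SE 0.27, adjusted p = 0.000188) and did not pass in dendritic cells (-0.78, SE 0.27, adjusted p = 0.0233). In the T helper cells 1 of 5 was lower and 0 higher than in naive CD4 T cells in each type, Lbp in both types. That is close to the shares of all genes, 15.4% lower in Th1 cells and 14.4% in Th2 cells. Th1 cells were below Th2 cells for Ly96 (-1.40, SE 0.18, adjusted p = 4.39e-05).

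**Figure D2:**
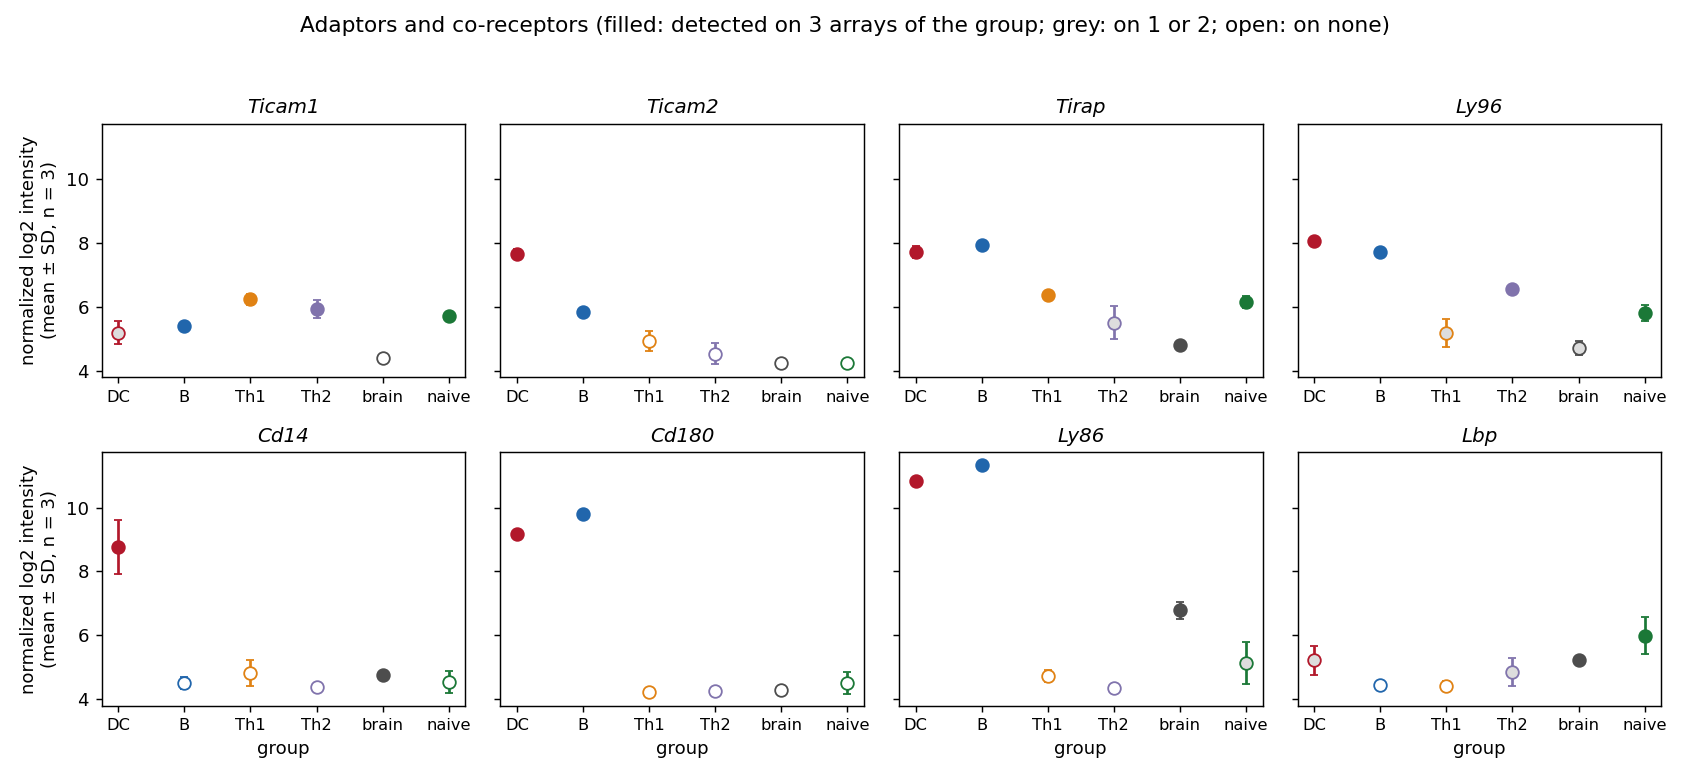
Group means with SD (n = 3) of normalized log2 intensity for the 3 adaptors and 5 co-receptors tested, with filled points where all 3 arrays of a group detected the gene, grey where 1 or 2 did and open where none did. Ly86 and Cd180 are high in dendritic cells and B cells, and Cd14 in dendritic cells, where it lies 4.22 log2 units above naive CD4 T cells.

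The endosomal receptors Tlr3, Tlr7, Tlr9 and Tlr13 recognise nucleic acids. Tlr13, which in mice senses bacterial ribosomal RNA, showed the widest difference of the 10 genes between dendritic cells and the other immune groups. Its brighter probe read 9.15, 9.36 and 8.95 on the dendritic cell arrays and 4.21 to 4.95 on the other 15 arrays, none of which detected it. The dendritic cell arrays were far apart from all others, while the other 5 groups overlapped one another. Tlr13 was at least 15.4-fold higher in dendritic cells than in naive CD4 T cells (4.71, SE 0.16, adjusted p = 2.07e-13) and at least 16.5-fold higher than in B cells (4.82, SE 0.16, adjusted p = 2.27e-13). In brain it was at least 23.8-fold lower than in dendritic cells (adjusted p = 2.18e-14). The dimmer Tlr13 probe was likewise detected on the dendritic cell arrays alone, at 6.15, 5.95 and 6.43, and rose by 1.75 (SE 0.21, adjusted p = 2.31e-06) over naive CD4 T cells. With the same genes kept, leaving out each dendritic cell array in turn gave 4.61 to 4.83 over naive CD4 T cells for the brighter probe.

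Tlr3, the receptor for double-stranded RNA, was also detected on the dendritic cell arrays alone, close to the detection limit. It read 5.33, 5.53 and 6.16 in dendritic cells, against 4.26, 4.26 and 4.24 in B cells, 4.26 to 5.01 on the T helper arrays, 4.42, 4.52 and 4.52 in brain, and 4.43, 4.50 and 4.61 in naive CD4 T cells. The dendritic cell arrays lay above all others, with replicate 3 above the other 2, and most of the other groups overlapped one another. Against naive CD4 T cells the increase was at least 1.38-fold (1.16, SE 0.20, adjusted p = 0.000113), and against B cells at least 1.48-fold (1.42, SE 0.20, adjusted p = 2.13e-05). Without dendritic cell replicate 3, with the same genes kept, the first of these was 0.93 (adjusted p = 0.000498) and did not pass. The increase over naive CD4 T cells was under 1 as well without background correction (0.71), with an offset of 50 (0.59), on the authors' scaled signal (0.46) and in a fit of those 6 arrays alone (0.97). The increase over B cells was under 1 without background correction (0.96), with an offset of 50 (0.69) and on the authors' scaled signal (0.99).

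Tlr7, which binds single-stranded RNA, was high in dendritic cells and B cells and lower in Th1 cells than in naive CD4 T cells. It read 8.79, 8.84 and 8.33 in dendritic cells, 8.62, 8.55 and 8.35 in B cells, 5.30, 5.37 and 5.09 in Th1 cells, 6.01, 5.98 and 5.81 in Th2 cells, 4.94, 4.47 and 4.57 in brain, and 6.94, 6.81 and 6.68 in naive CD4 T cells. Dendritic cells and B cells overlapped (difference 0.14, SE 0.15, adjusted p = 0.526), and naive, Th2, Th1 and brain arrays followed without overlap between them. Dendritic cells were 3.58-fold (1.84, SE 0.15, adjusted p = 2.49e-08) and B cells 3.24-fold (1.70, SE 0.15, adjusted p = 1.12e-07) above naive CD4 T cells. Th1 cells were 2.94-fold lower than naive CD4 T cells (-1.56, SE 0.15, adjusted p = 1.62e-07), with 2 of 3 arrays detected. The Th2 value of -0.88 (SE 0.15, adjusted p = 0.000107) missed the fold threshold. Set directly against each other, Th1 cells lay 0.68 log2 units below Th2 cells (-0.68, SE 0.15, adjusted p = 0.00535), also under the threshold. In brain Tlr7 was detected on 1 of 3 arrays and lay below dendritic cells (-3.99 on the log2 scale, adjusted p = 1.72e-13).

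Tlr9, the receptor for unmethylated CpG DNA, stayed near the detection limit everywhere. Its brighter probe was detected on the 3 B cell arrays alone, at 5.17, 5.20 and 5.17 (detection p of 0.00641 to 0.00962), against 4.82, 4.73 and 4.90 in dendritic cells and 4.62, 4.55 and 4.69 in naive CD4 T cells. The remaining arrays read 4.22 to 4.45. B cells were above every other array, by 0.56 log2 units over naive CD4 T cells (SE 0.08, adjusted p = 4.6e-05), while dendritic cells were 0.36 below B cells (-0.36, SE 0.08, adjusted p = 0.00241), and neither difference reached the fold threshold. A second Tlr9 probe was detected on no array, so Tlr9 was barely measurable in any group.

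Genes listed for the transport and cleavage of endosomal receptors, endolysosome transporters included, were mostly higher in dendritic cells and B cells. In dendritic cells 7 of 11 tested were higher than in naive CD4 T cells and in B cells 6 of 11, with 0 lower in both. Of all genes 13.2% were higher and 9.83% lower in dendritic cells, and 7.3% and 6.92% in B cells. Unc93b1, the chaperone that delivers nucleic acid sensing receptors to endosomes, was 4.96 log2 units higher in dendritic cells (SE 0.18, adjusted p = 6.98e-13) and 5.33 higher in B cells (SE 0.18, adjusted p = 6.82e-13). Slc15a3, a transporter of the endolysosome, undetected in naive CD4 T cells, was at least 11.8-fold higher in dendritic cells (adjusted p = 4.03e-12) and at least 7.31-fold higher in B cells (adjusted p = 6.66e-11). It was also at least 7.60-fold higher in Th1 (adjusted p = 4.56e-11) and at least 9.64-fold higher in Th2 cells (adjusted p = 1.62e-11). The protease Ctss rose by 2.15 (adjusted p = 3.5e-09) in dendritic cells, and Lgmn, another protease, by 2.72 (adjusted p = 2.55e-08) in B cells. Ap3b1, a subunit of a sorting complex, had a difference of 0.05 (SE 0.17, adjusted p = 0.868) in dendritic cells. Against B cells, dendritic cells were higher for 1 of 11 (Ctsb, 1.79, SE 0.13, adjusted p = 4.77e-09) and lower for 0, beside 10.2% and 4.53% of all genes.

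Tlr12 recognises profilin of protozoan parasites in mice, together with Tlr11. It read 5.58, 5.56 and 5.69 in dendritic cells, 4.57, 4.47 and 4.62 in B cells, 4.38, 4.28 and 4.23 in Th1 cells, 4.37, 4.46 and 4.40 in Th2 cells, 4.26, 4.32 and 4.41 in brain, and 5.19, 4.29 and 4.83 in naive CD4 T cells. It was detected on the 3 dendritic cell arrays and on naive replicate 1, and the dendritic cell arrays lay above all others. Tlr12 passed the detection filter only through the dendritic cell arrays, so its comparisons with them are a description. Dendritic cells were at least 1.42-fold above B cells (1.05, SE 0.16, adjusted p = 4.1e-05), and brain at least 2.04-fold below dendritic cells (-1.28, SE 0.16, adjusted p = 1.06e-06). Over naive CD4 T cells the difference of 0.84 (SE 0.16, adjusted p = 0.000243) missed the fold threshold, and without naive replicate 1 it was 1.07 (adjusted p = 1.09e-05) and passed. The gain over B cells was 0.53 to 0.98 in 4 alternatives and did not pass there, nor did the brain value without background correction (-0.81) or with an offset of 50 (-0.61). Of the other receptors on the array, both that were tested rose in dendritic cells over naive CD4 T cells: Tlr11 by 3.76 (at least 7.24-fold, SE 0.16, adjusted p = 5.16e-12) and Tlr5, the flagellin receptor, by 2.52 (at least 2.96-fold, SE 0.13, adjusted p = 3.33e-11). Neither was detected in any other group, so both passed the detection filter only through the dendritic cell arrays. Their values are therefore a description. Tlr8 was on the array and did not pass the detection filter.

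**Figure D3:**
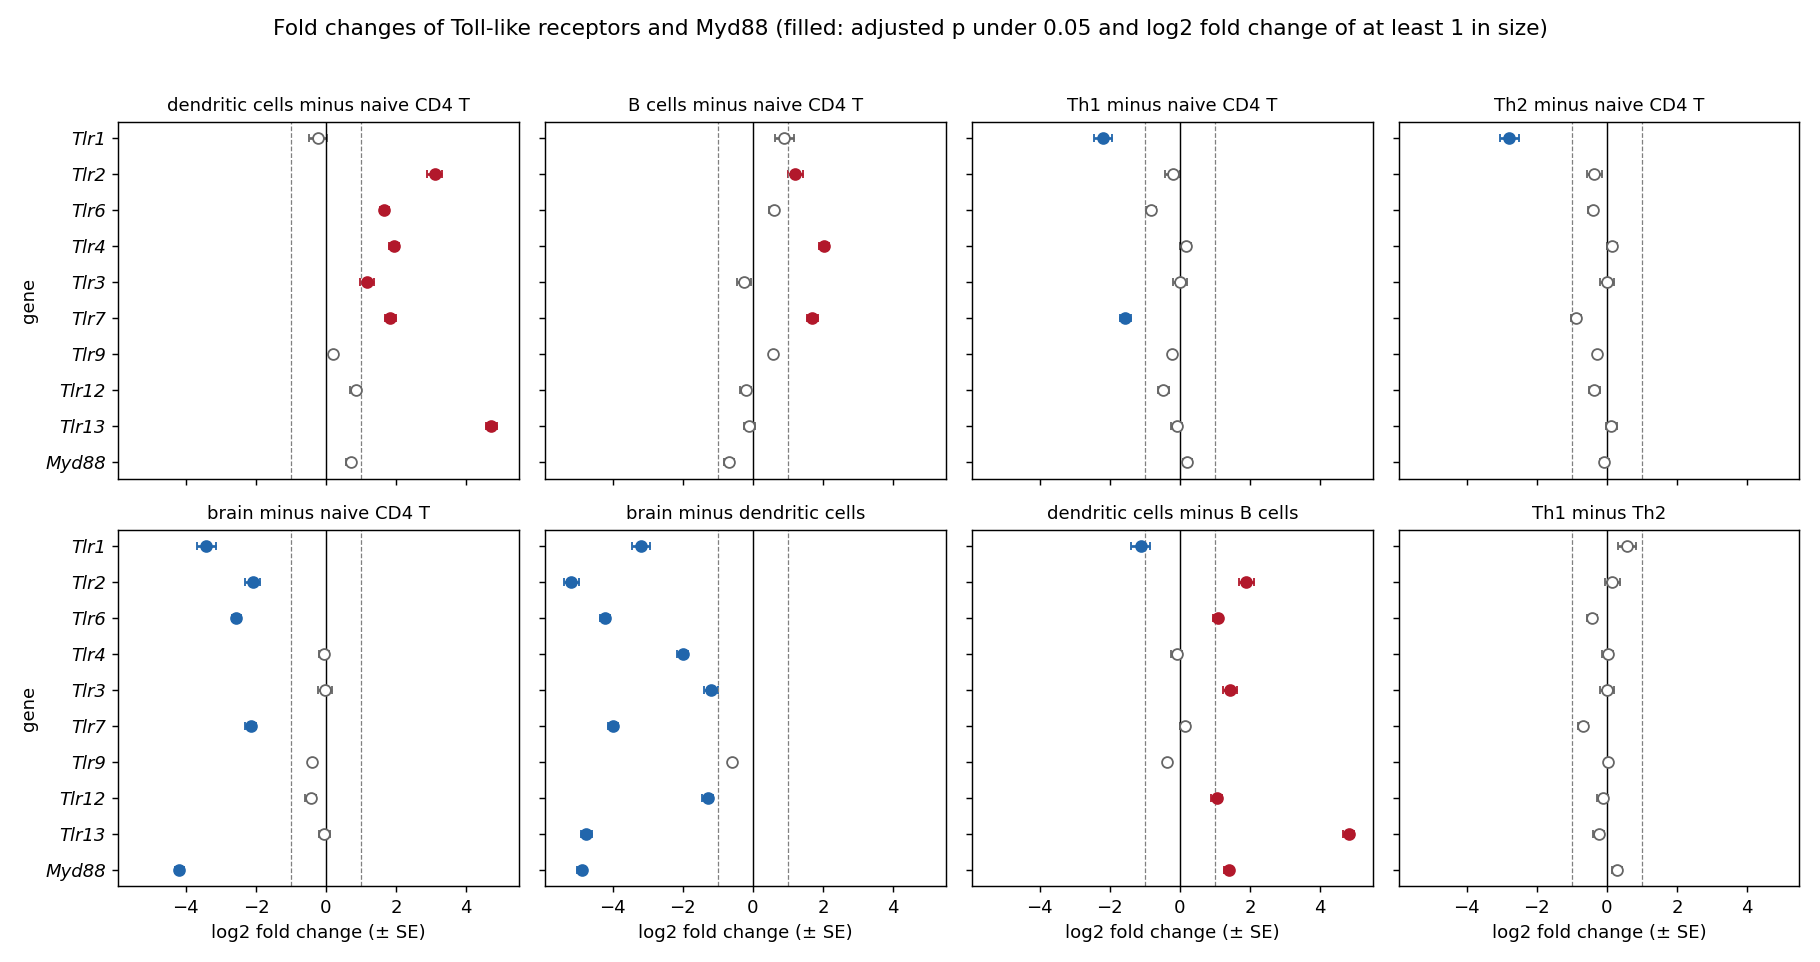
Log2 fold changes with SE of the 10 genes in the 8 comparisons, filled where the adjusted p was under 0.05 and the log2 fold change at least 1 in size, with dashed lines at 1 and -1. In brain minus dendritic cells 9 of 10 genes are filled and negative, and Tlr13 reaches 4.71 in dendritic cells minus naive CD4 T cells.

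Myd88 itself was detected on all 18 arrays with both probes. The brighter one read 11.25, 11.44 and 11.72 in dendritic cells, 9.999, 10.10 and 10.14 in B cells, 10.83, 11.04 and 11.06 in Th1 cells, 10.51, 10.70 and 10.85 in Th2 cells, 6.48, 6.66 and 6.60 in brain, and 10.57, 10.89 and 10.82 in naive CD4 T cells. Brain was the low group, more than 3 log2 units under every immune cell array, and the T cell groups overlapped. Brain was 18.1-fold below naive CD4 T cells (-4.18, SE 0.13, adjusted p = 1.25e-14) and 29.6-fold below dendritic cells (-4.89, SE 0.13, adjusted p = 1.57e-15). Dendritic cells were 2.62-fold above B cells (1.39, SE 0.13, adjusted p = 2.08e-07). Over naive CD4 T cells their difference was 0.71 (SE 0.13, adjusted p = 0.000239) with the brighter probe, which did not pass, and 1.35 (SE 0.14, adjusted p = 4.51e-07) with the dimmer probe, which did. B cells differed from naive CD4 T cells by -0.68 (SE 0.13, adjusted p = 0.000527) with the brighter probe. With the dimmer probe that difference was 0.10 (SE 0.14, adjusted p = 0.653), and neither passed. Th1 cells differed from naive CD4 T cells by 0.21 (SE 0.13, adjusted p = 0.193) and Th2 cells by -0.07 (SE 0.13, adjusted p = 0.7). The dimmer probe gave 0.82 (adjusted p = 8.48e-05) in Th1 cells and 0.15 (adjusted p = 0.421) in Th2 cells, and put Th1 above Th2 cells by 0.67 (SE 0.14, adjusted p = 0.00347), under the fold threshold.

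**Figure D4:**
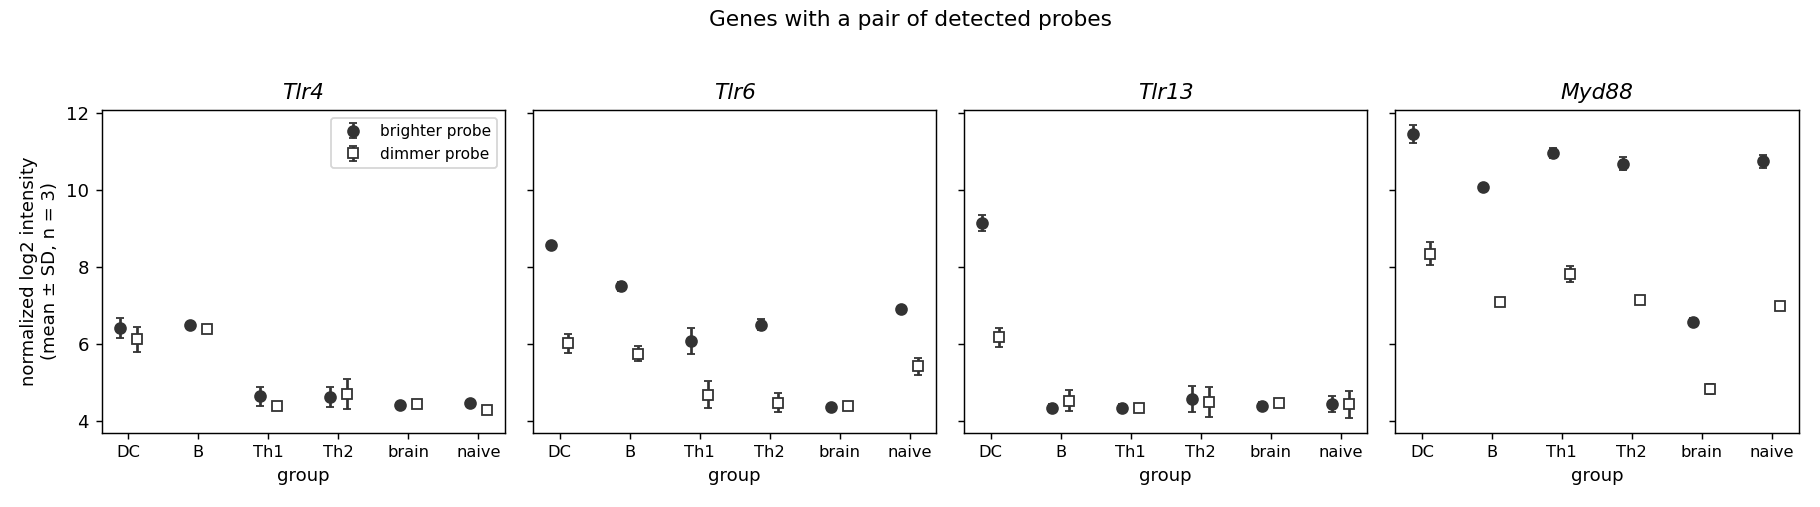
Group means with SD (n = 3) of normalized log2 intensity for the brighter (filled circles) and dimmer (open squares) detected probe of the 4 genes that had a pair. Both probes of Tlr13 stand out in dendritic cells, and the dimmer Tlr6 probe separates dendritic cells from naive CD4 T cells by 0.60 where the brighter one gives 1.67.

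Besides Myd88, 3 adaptors were tested. Ticam2, which links Tlr4 to Ticam1, was 3.40 log2 units higher in dendritic cells than in naive CD4 T cells (at least 5.41-fold, SE 0.16, adjusted p = 2.01e-11) and 1.58 higher in B cells (at least 1.53-fold, SE 0.16, adjusted p = 6.42e-07). Tirap, which bridges Tlr2 and Tlr4 to Myd88, was higher by 1.57 (SE 0.19, adjusted p = 3.5e-06) in dendritic cells and 1.78 (SE 0.19, adjusted p = 1.27e-06) in B cells. Ticam1, the adaptor of Tlr3, did not pass in dendritic cells (-0.52, SE 0.16, adjusted p = 0.013). In Th1 and Th2 cells 0 of the 3 passed against naive CD4 T cells, and in brain 2 of 3 were lower. Of the receptors for interleukin 1 and 18, whose signalling members also use Myd88, all 4 tested were higher in Th1 than in naive CD4 T cells, among them Il18rap by at least 19.1-fold (adjusted p = 8.43e-13) and Il1r2, a decoy receptor that does not signal, by at least 16.4-fold (adjusted p = 1.12e-10), both undetected in naive CD4 T cells. In Th2 cells 3 were higher and 1 lower, the last being Il18r1 (-4.06, at least 7.83-fold lower, SE 0.17, adjusted p = 6.71e-12). Shares of all genes called in these comparisons are those given above.

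Downstream of the receptors, 14 kinases and ubiquitin ligases were tested. Between dendritic cells and naive CD4 T cells 2 were higher, 2 lower and 10 did not pass, beside 13.2% higher and 9.83% lower of all genes. These counts lie close to what the shares give for 14 genes. The 4 that passed included Btk, a kinase of B cells and myeloid cells (4.84, SE 0.21, adjusted p = 5.48e-12), and Ikbke, a kinase of interferon regulatory factors (-4.12, SE 0.17, adjusted p = 2.87e-12). Irak1, a kinase that Myd88 recruits, did not pass there (-0.39, SE 0.15, adjusted p = 0.0341). Both T helper types had 4 lower, and Th1 cells had 3 and Th2 cells 2 higher than naive CD4 T cells, led in both by Map3k8 with 4.03 (SE 0.31, adjusted p = 9.61e-09) in Th1 and 3.59 (SE 0.31, adjusted p = 4.42e-08) in Th2 cells. Of all genes 13% were higher and 15.4% lower in Th1 cells, and 12.6% and 14.4% in Th2 cells. Of 11 transcription factors 8 were higher in dendritic cells and 0 lower, beside the same shares of all genes as for the kinases. The leading ones were Irf8 (4.85, SE 0.23, adjusted p = 1.68e-11), Irf5 (4.29, SE 0.13, adjusted p = 6.71e-14) and Spi1, which encodes PU.1 (3.55, at least 6.32-fold, SE 0.10, adjusted p = 4.75e-14). B cells had 6 higher and 1 lower (7.3% and 6.92% of all genes), Th1 cells 5 higher and 3 lower, and Th2 cells 5 higher and 2 lower. Rela, a subunit of NF-kappa-B, passed in none of these 4 (-0.08 in dendritic cells, SE 0.11, adjusted p = 0.604). In brain 7 of 11 were lower than in naive CD4 T cells and 11 of 11 lower than in dendritic cells, beside 27.1% and 26.2% of all genes.

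Of 11 inhibitors of the pathway tested, 4 were higher and 2 lower in dendritic cells than in naive CD4 T cells, beside 13.2% and 9.83% of all genes. The counts were 2 and 2 in B cells (7.3% and 6.92% of all genes), 2 and 2 in Th1 cells (13% and 15.4%) and 3 and 2 in Th2 cells (12.6% and 14.4%). Pik3ap1, an adaptor of phosphoinositide 3-kinase, was undetected in naive CD4 T cells and higher in all 4 groups, by at least 32.7-fold in dendritic cells (adjusted p = 2.31e-12), 50.7-fold in B cells (adjusted p = 1.29e-12), 9.71-fold in Th1 cells (adjusted p = 3.84e-10) and 12.8-fold in Th2 cells (adjusted p = 1.26e-10). Irak3, which blocks Myd88 signalling, was higher in B cells (2.47, SE 0.21, adjusted p = 8.19e-08) and lower in Th1 (at least 1.88-fold, adjusted p = 8.82e-06) and Th2 cells (at least 1.89-fold, adjusted p = 1.45e-06), where it was undetected. Target cytokines and chemokines were higher in 7 of 10 in dendritic cells, 7 of 10 in Th1 and 8 of 10 in Th2 cells, and in B cells 4 were higher and 1 lower. The shares of all genes are those given for the inhibitors. In dendritic cells Il1b was 8.47 (SE 0.32, adjusted p = 1.12e-12) and Ccl4 8.27 (SE 0.48, adjusted p = 2.93e-10) log2 units above naive CD4 T cells, while Ifnb1 was undetected in both (-0.01, SE 0.26, adjusted p = 0.981). Il1b is also abundant in granulocytes and monocytes. Ccl3 was at least 542-fold higher in Th1 (adjusted p = 1.27e-12) and at least 360.3-fold higher in Th2 cells (adjusted p = 3.04e-12) than in naive CD4 T cells, whose 3 arrays did not detect it. Of the 10 target genes 1 was higher and 4 were lower in Th1 than in Th2 cells, beside 2.18% and 2.32% of all genes. Among the 4, Il6 was at least 5.94-fold lower in Th1 than in Th2 cells (-3.40, SE 0.20, adjusted p = 6.25e-09). The only one higher was Tnf (1.44, SE 0.32, adjusted p = 0.00574), which is named here after its values were seen. The dissociation and stress genes, Fos and Jun among them, summed to 19752 to 46217 in dendritic cells and 7706 to 20151 in B cells, against 3907 to 16650 in naive CD4 T cells. Their part in the counts above was not tested.

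**Figure D5:**
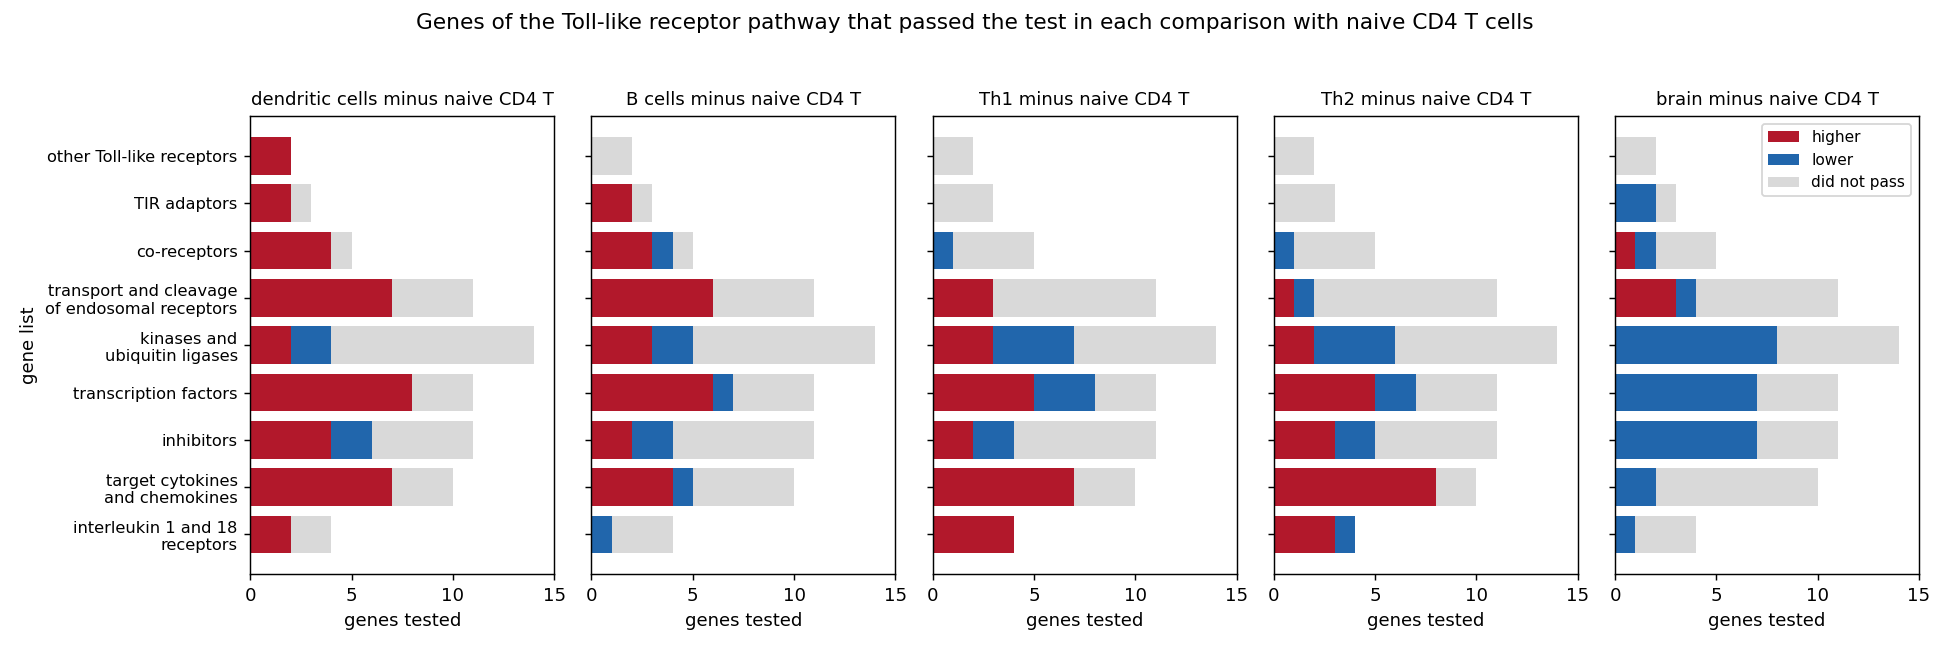
Number of tested genes of each pathway list that were higher, lower or did not pass in 5 comparisons with naive CD4 T cells. Co-receptors, transcription factors and target cytokines are mostly higher in dendritic cells (4 of 5, 8 of 11 and 7 of 10, beside 13.2% of all genes). Inhibitors and kinases are mostly lower in brain (7 of 11 and 8 of 14, beside 27.1% of all genes).

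Across the 18 arrays the pairs of members that followed each other most closely were Tlr2 and Tlr6 (Pearson r = 0.955), Tlr1 and Tlr9 (0.915), Tlr6 and Tlr7 (0.909) and Tlr7 and Tlr9 (0.906), while Tlr3 and Tlr9 had r = 0.136. These arrays share 6 groups, so each r mainly describes group means. Tlr3, Tlr9 and Tlr13 were detected on 3 of the 18 arrays, Tlr12 on 4 and Tlr4 on 6. Most values of these genes were therefore undetected signal, which limits every r given for them, those of Tlr9 included. Among genes outside the family, Tlr13 was most like Klri1 (r = 0.998), Hp (0.997) and Sucnr1 (0.997). Tlr2 was closest to Gm2a (0.976), Cd86 (0.973) and Pglyrp1 (0.969), Tlr6 to Tcirg1 (0.992), Phf11a (0.982) and Nsmaf (0.982), and Tlr7 to Mfsd1 (0.984), Apobec1 (0.984) and H2-DMa (0.976). Tlr4 was closest to Cyp4f18 (0.980), Rab39 (0.980) and Cd180 (0.979), the last being the co-receptor described above. Tlr1 was closest to Atp10d (0.979), Ice2 (0.978) and Fam50a (0.966), and Tlr9 to Rdh12 (0.977), Stk11ip (0.976) and Irak3 (0.975). For Tlr3 they were Cd209b (0.952), Mxd3 (0.946) and Dock5 (0.945), for Tlr12 F10 (0.934), Gzmm (0.925) and Cd7 (0.925), and for Myd88 Arpc1b (0.988), Mns1 (0.987) and Itpripl1 (0.980). With many genes high in a single group, such as dendritic cells, values near 1 are common for Tlr13.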

How the data were processed

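Expression was measured on 18 Illumina mouse BeadChips, with 3 arrays in each of 6 groups, from total RNA extracted with TRI reagent. The authors deposited a probe table of non-normalized signal intensity with a detection p-value per probe and array, and a table of scaled intensity, in which every array had been multiplied by 1 factor. Per the submitters' processing notes GenomeStudio was used; neither its version nor the making of the detection p-values is stated in the labels. Replicate arrays held different values.

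The non-normalized intensities were background-corrected by normexp, with negative-control statistics inferred from the detection p-values, given an offset of 16, quantile normalized and taken to log2 (limma 3.58.1, R 4.3.3). Of 45281 probes, 34885 had 1 gene symbol in the platform annotation, 18 several and 10378 were not listed, and 34807 matched RefSeq through the Entrez identifier. Probes with a detection p under 0.01 on at least 3 arrays were kept (23771), and the detected probe with the highest mean represented a gene, which left 12094 genes. One linear model with 6 group means over the 18 arrays was tested with lmFit and eBayes, two-sided, with Benjamini-Hochberg adjustment over all genes. A gene passed at an adjusted p under 0.05 and a log2 fold change of at least 1 in size. A fold given as "at least" compares the brighter group with, on each array of the undetected group, the higher of the lowest detected signal and the probe's own. The number of arrays limits the precision.

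The 10 genes, the pathway and marker lists and the comparisons were chosen with earlier results of these data known. All 10 were named; from each pathway list, up to 3 passing genes with the largest fold changes and 1 that did not pass were eligible, and for likeness the 3 genes with the highest Pearson r over 18 arrays. The titles number replicates 1 to 3 in each group. Deviations from the group means correlated for all 3 numbers only between Th1 and Th2 arrays (r = 0.592, 0.316 and 0.675). That pairing is read from the data and not from a stated shared batch. The main model held no replicate block, so the Th1 against Th2 values in the Results are unpaired. A block was used only in the alternatives below. Promoter windows came from RefSeq (GRCm38.p6). Figures were drawn with matplotlib 3.10.9. The scripts were tested on simulated data.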

Additional observations from a re-analysis of the deposited data

How the results depend on the processing

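No called value of the 10 genes changed sign under any alternative run. Of the log2 fold changes tallied under the alternatives, 708 kept their side of the threshold, 26 fell short of it and 28 passed it, 18 of these only because the fold threshold was dropped. The tally leaves out unchanged values that did not pass and had a small main log2 fold change. From the fits without a dendritic cell array but with the genes kept, it holds only Tlr3, Tlr12 and Tlr13. For dendritic cells against B cells 7 genes passed, against 4 without background correction, 3 with an offset of 50 and 4 on the authors' scaled signal. For B cells against naive CD4 T cells 3 passed, against 5 with median scaling, where Tlr1 (1.66) and Tlr6 (1.34) were added, and 7 with no fold threshold. For Th2 against naive CD4 T cells 1 passed, against 2 with median scaling, where Tlr7 (-1.27) was added, and 4 with no fold threshold. With no fold threshold, 5 in place of 2 passed for Th1 against naive CD4 T cells and 2 in place of 0 for Th1 against Th2. Median scaling moved the median log2 difference of all genes to 0.333 (B cells against naive CD4 T cells), 0.481 (brain against naive CD4 T cells), 0.328 (brain against dendritic cells) and -0.227 (dendritic cells against B cells). Brain against naive CD4 T cells passed for Tlr13 with cyclic loess (-1.01), although it was undetected in both. Myd88 in dendritic cells over naive CD4 T cells passed with median scaling (1.18) and with the mean of its probes (1.03).

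Leaving out each array in turn gave 4 to 7 genes for dendritic cells against naive CD4 T cells, 3 to 4 for B cells against naive CD4 T cells, 5 to 7 for dendritic cells against B cells, 2 to 2 for Th1 and 1 to 1 for Th2 against naive CD4 T cells, 0 to 0 for Th1 against Th2, 5 to 5 for brain against naive CD4 T cells and 7 to 9 for brain against dendritic cells. The low values come from the detection filter: Tlr3 and Tlr13, detected on exactly 3 arrays, are not tested once a dendritic cell array is left out. With the genes kept, an alternative chosen after seeing the data, 5 to 6, 7 to 7 and 8 to 9 passed in the comparisons of dendritic cells with naive CD4 T cells, of dendritic cells with B cells and of brain with dendritic cells.

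With the replicate number as a block the counts of passing genes were 6, 3, 7, 2, 1, 0, 5 and 9 in the 8 comparisons in the order of the report, so the block changed no call count; for Th1 against Th2, 552 of all genes passed with the block and 544 without. The blocked fit of the Th1 and Th2 arrays alone, added after seeing the data, tested 4 of the 10 genes and called 0. Over all genes, calls moved by more than 1.5 times for B cells against naive CD4 T cells under median scaling (2631 in place of 1720) and for Th1 against Th2 with an offset of 50 (315 in place of 544) and on the authors' scaled signal (345). They also did so with no fold threshold in 7 comparisons: 6166 in place of 2785 for dendritic cells and 4235 in place of 1720 for B cells against naive CD4 T cells, 4622 in place of 1783 for dendritic cells against B cells, 6504 in place of 3438 for Th1 and 6338 in place of 3260 for Th2 against naive CD4 T cells, 1670 in place of 544 for Th1 against Th2, and 9627 in place of 6242 for brain against dendritic cells.

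Signal over background limits Tlr3, Tlr4, Tlr9 and Tlr12, which were at or near the detection limit in most groups. Tlr2 was near that limit in brain.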
